A study of Sus scrofa with 13 samples.

Results

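The heat shock protein and small chaperone genes listed for this account were HSPB1, HSPB6, HSPB7, CRYAB, HSPA8, HSPA5, HSP90AA1, HSP90AB1, HSPH1 and DNAJB1. They were chosen by gene symbol as members of the heat shock protein families. The rule used no measured value, but the list was chosen with earlier results of these data known. Of the 10 symbols, 9 were matched to a gene present in the count tables of both breeds, out of 25322 genes in those tables. HSPB7 was not matched and was not analysed here. All 9 matched genes passed the filter on low counts in every comparison.

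RNA of the longissimus lumborum, the loin muscle that runs along the back, was sequenced from 13 female pigs aged 6 months, 1 library per pig. The pigs were of the Hampshire or the Pietrain breed and carried a high or a low loin weight for their breed. There were 3 Hampshire pigs with high loin weight, 3 Hampshire pigs with low loin weight, 4 Pietrain pigs with high loin weight and 3 Pietrain pigs with low loin weight. All shared housing and feed, came from separate families, were picked for extreme loin weight within their breed, and gave muscle directly at slaughter. Beyond breed, no genotype, treatment or time point is given that separated the groups. Loin weight and breed were observed traits and not applied conditions. Pigs are named below by breed, loin weight and the number in their label.

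Chaperones bind proteins that are unfolded or only partly folded and keep them from clumping. Small heat shock proteins hold such proteins without using ATP, while HSP70 proteins bind and release them in an ATP-driven cycle that J-domain proteins start and HSP110 proteins help to reset by exchanging the nucleotide. HSP90 acts later, on clients that are nearly folded, and in muscle these systems serve the contractile proteins, including myosin and the Z-disc, which are under mechanical strain.

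In the Hampshire breed, 4 of the 9 genes were called between the loin weight groups, all lower in pigs with high loin weight. Of all genes tested there, 26.6% were called and 14.6% were called lower. HSPH1, an HSP110 nucleotide exchange factor, fell 3.98-fold, and HSPA8, the constitutive cytosolic HSP70, fell 1.96-fold. The HSPA8 call was lost in 2 of the 6 fits that left out 1 pig. DNAJB1, a J-domain partner of HSP70, fell by 0.58 and HSPA5, the HSP70 of the endoplasmic reticulum, by 0.54 on the log2 scale, 2 calls that were lost in a fit over all 13 pigs. The small heat shock genes HSPB1, HSPB6 and CRYAB and the HSP90 gene HSP90AB1 were not called in that comparison. In Pietrain pigs none of the 9 genes was called, where 0 of all 12065 genes tested were called. The loin weight effect on HSPH1 differed between the breeds, where 5.9% of all genes were called.

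The total count ranged from 11312755 to 20134612 per pig. In all 15 pairs of pigs from the same group the counts differed by more than sampling noise, so each pig was kept as its own replicate. Normalised read counts are given as CPM, the counts scaled to library size after TMM correction. A gene was called where its Benjamini-Hochberg adjusted p was under 0.05 and its fold change 1.2 or more. The tissue label held, as 4 skeletal muscle markers (RYR1, MYLPF, ACTA1 and CKM) summed to 66811 to 230777 CPM per pig. Summed levels of 5 slow fibre markers ranged from 2832 to 6602 CPM in Hampshire pigs with low loin weight and from 11689 to 17788 CPM in those with high loin weight. The Pietrain pig low 5 stood apart with 27.7 CPM, where the other Pietrain pigs ranged from 746 to 11151 CPM. Breed, the deposited count table and any batch that went with it cannot be told apart.

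**Figure D1:**
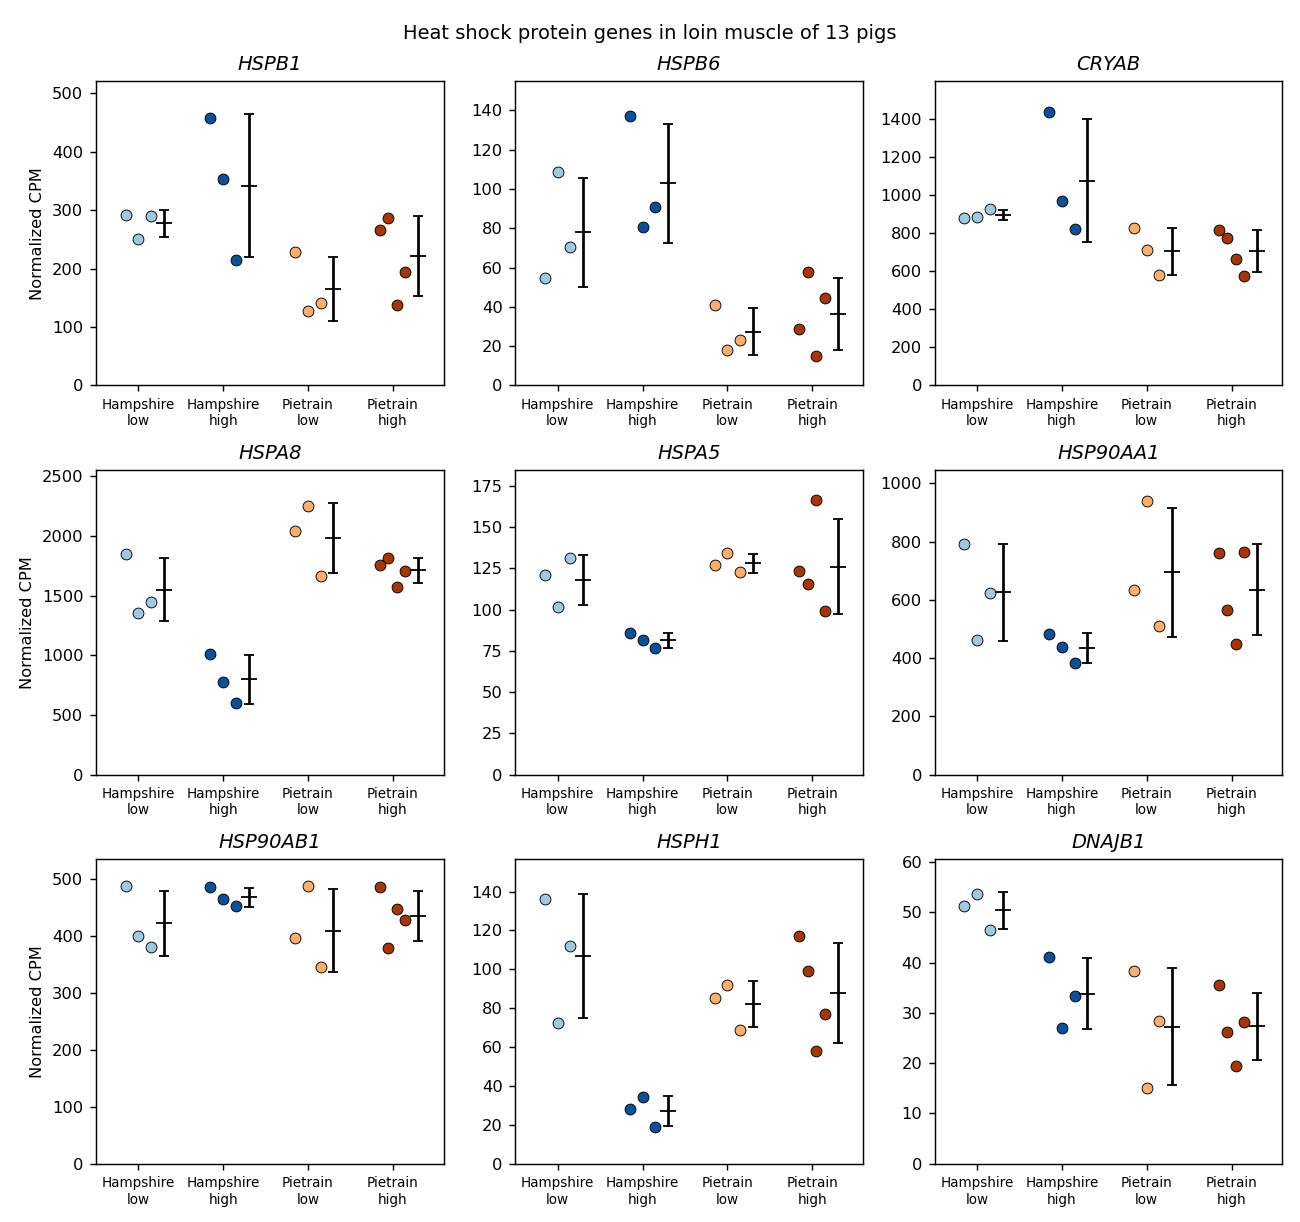
Normalised read counts (CPM, linear axes from 0) of the 9 matched chaperone genes. Each point is 1 pig, the bar beside it is the group mean with SD, and the groups are Hampshire and Pietrain pigs with low or high loin weight. For HSPH1, HSPA8 and HSPA5 the 3 Hampshire pigs with high loin weight lie below all the other pigs, at 18.9 to 34.4, 603 to 1015 and 76.6 to 85.8 CPM.

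The first comparison addressed how chaperone expression differed with loin weight within the Hampshire breed. Of the 9 genes, 4 were called, all 4 lower in pigs with high loin weight. Of 12228 genes tested, 26.6% were called in either direction and 14.6% were called lower. The median log2 fold change of the 9 genes was -0.53, beside 0.03 over all genes tested. In bulk muscle, fewer cells of a type and less RNA per cell cannot be told apart.

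HSPH1 (ENSSSCG00000009334, chromosome 11, 7585525 to 7661067 on Sscrofa10.2) encodes the HSP110 protein that exchanges nucleotide on HSP70 and helps to dissolve aggregates. It reached 136, 72.6 and 112 CPM in the Hampshire pigs low 1, 2 and 3. It reached 28.0, 34.4 and 18.9 CPM in the Hampshire pigs high 8, 9 and 10. The highest pig of the high group lay below the lowest pig of the low group, so the groups did not overlap. The mean of the low group was 107 ± 32.1 CPM (SD, n = 3), against 27.1 ± 7.80 CPM (SD, n = 3) for the high group. The log2 fold change was -1.99 with a standard error of 0.29 (95% interval -2.64 to -1.34, edgeR quasi-likelihood test, adjusted p = 0.00341). The gene was called in each of the 6 fits that left out 1 pig, with log2 fold changes from -2.23 to -1.79. In a two-sided exact permutation test, p was 0.1, the smallest value that 3 pigs against 3 can give.

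HSPA8 (ENSSSCG00000015140, chromosome 9, 55406199 to 55409607) encodes HSC70, which folds newly made proteins and also uncoats clathrin vesicles. Its level was 1849.5, 1357 and 1449 CPM in the Hampshire pigs low 1, 2 and 3. In the Hampshire pigs high 8, 9 and 10 it was 1015, 777 and 603 CPM. The groups did not overlap. This amounted to a log2 fold change of -0.97 with a standard error of 0.23 (95% interval -1.49 to -0.44, adjusted p = 0.0180). The call was lost without the Hampshire pig low 3 (adjusted p = 0.0540) and without the Hampshire pig high 10 (adjusted p = 0.0659), the log2 fold change then being -1.02 and -0.81.

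DNAJB1 (ENSSSCG00000013784, chromosome 2, 65177577 to 65180388) encodes HSP40, which delivers substrates to HSP70 and stimulates its ATPase. It stood at 51.3, 53.6 and 46.4 CPM in the Hampshire pigs low 1, 2 and 3, and at 41.1, 27.0 and 33.4 CPM in the Hampshire pigs high 8, 9 and 10. The groups did not overlap, but the lowest low pig and the highest high pig lay close together. Its log2 fold change was -0.58 with a standard error of 0.18 (adjusted p = 0.0445). The call was lost in the fit over all 13 pigs (adjusted p = 0.177). It was also lost without the Hampshire pigs low 1, low 2, low 3, high 9 or high 10, and adjusted p ranged from 0.0255 to 0.113 over the 6 fits that left out a pig.

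HSPA5 (ENSSSCG00000005601, chromosome 1, 299754095 to 299758545) encodes BiP, the HSP70 of the endoplasmic reticulum lumen that also holds the stress sensors of that compartment inactive. It was found at 121, 101 and 131 CPM in the Hampshire pigs low 1, 2 and 3, and at 85.8, 81.7 and 76.6 CPM in the Hampshire pigs high 8, 9 and 10. The high group was narrow and lay below the whole low group. For HSPA5 the log2 fold change was -0.54 with a standard error of 0.16 (adjusted p = 0.0369). The call was lost in the fit over all 13 pigs (adjusted p = 0.0602) and without the Hampshire pigs low 1, low 3, high 9 or high 10, and adjusted p ranged from 0.0410 to 0.137 over the 6 fits that left out a pig. For HSPA8, DNAJB1 and HSPA5 the exact permutation p was also 0.1. The 4 called genes were those of the 9 whose groups did not overlap, where 45.9% of all genes tested did not overlap and 23.5% did so with the high group lower.

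Of the HSP90 genes, which encode the inducible and the constitutive cytosolic HSP90, neither was called in Hampshire pigs. HSP90AA1 (ENSSSCG00000002535, chromosome 7, 129758772 to 129761205) was measured at 793, 461 and 622 CPM in the Hampshire pigs low 1, 2 and 3 and at 483, 438 and 383 CPM in the Hampshire pigs high 8, 9 and 10. The low pig 2 fell within the range of the high group. The log2 fold change was -0.53 with a standard error of 0.22 (adjusted p = 0.106). HSP90AB1 (ENSSSCG00000001701, chromosome 7, 45113269 to 45123953) varied least of the 9 genes among groups, with group means between 409.99 and 468 CPM. Its log2 fold change in Hampshire pigs was 0.14 (95% interval -0.24 to 0.52, adjusted p = 0.567). HSP90AA1 and HSP90AB1 resemble each other, as do HSPA8 and other HSP70 genes, so reads may have been shared between them and the split is uncertain.

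The small heat shock genes had positive log2 fold changes in Hampshire pigs, and their groups overlapped. HSPB1 (ENSSSCG00000024482, chromosome 3, 9925863 to 9927499), whose product HSP27 binds actin filaments and unfolded proteins, was at 292, 250.4 and 289.7 CPM in the Hampshire pigs low 1, 2 and 3. In the Hampshire pigs high 8, 9 and 10 it was at 458, 354 and 214 CPM. The high pigs thus lay on both sides of the low group, and the log2 fold change was 0.29 (95% interval -0.28 to 0.86, adjusted p = 0.413).

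CRYAB (ENSSSCG00000015025, chromosome 9, 44428187 to 44432883) encodes alpha B-crystallin, which binds desmin and titin in muscle. Its level was 879.6, 883 and 924 CPM in the Hampshire pigs low 1, 2 and 3 and 1437, 966 and 823 CPM in the Hampshire pigs high 8, 9 and 10. The low group was narrow, the high group wide, and the pig high 8 was the highest of all 13. CRYAB had a log2 fold change of 0.26 (95% interval -0.24 to 0.75, adjusted p = 0.408).

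HSPB6 (ENSSSCG00000023498, chromosome 6, 40634195 to 40639501) encodes HSP20, a small heat shock protein phosphorylated by protein kinase A in muscle. It was at 54.7, 109 and 70.3 CPM in the Hampshire pigs low 1, 2 and 3 and at 137, 80.8 and 90.6 CPM in the Hampshire pigs high 8, 9 and 10. The low pig 2 lay above 2 of the 3 high pigs. The log2 fold change was 0.40 (95% interval -0.23 to 1.03, adjusted p = 0.309).

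**Figure D2:**
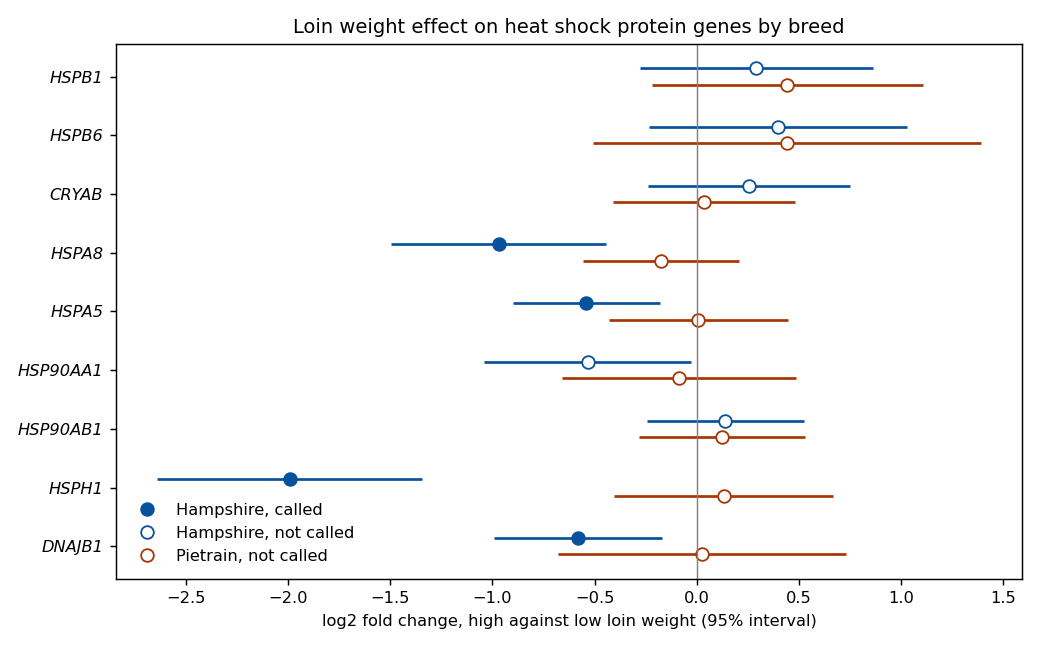
Log2 fold change of high against low loin weight for each gene in Hampshire (blue) and Pietrain (brown) pigs, on a linear axis, with 95% intervals as bars. Filled circles were called. The Hampshire intervals of HSPH1, HSPA8, HSPA5, DNAJB1 and HSP90AA1 lie below 0, and all 9 Pietrain intervals include 0.

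In Pietrain pigs 0 of the 9 genes were called between high and low loin weight. Of 12065 genes tested, edgeR called 0, or 0%, while 398 (3.3%) had an unadjusted p under 0.05, and DESeq2 called 1. None of the 9 genes had an unadjusted p under 0.05, and for all 9 the high and low groups overlapped, where 4.6% of all genes did not overlap. HSPH1 stood at 85.3, 91.9 and 68.8 CPM in the Pietrain pigs low 3, 5 and 8 and at 117, 99.2, 58.2 and 76.8 CPM in the Pietrain pigs high 1, 2, 6 and 7. The high pigs surrounded the low pigs on both sides, with a log2 fold change of 0.13 (95% interval -0.40 to 0.67).

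HSPA8 was at 2039, 2248 and 1667 CPM in the Pietrain pigs low 3, 5 and 8, and at 1757, 1818, 1571 and 1711 CPM in the Pietrain pigs high 1, 2, 6 and 7. Its lowest low pig lay within the high group, and the log2 fold change was -0.18 (95% interval -0.56 to 0.21). HSPA5 was at 127, 134 and 123 CPM in the Pietrain pigs low 3, 5 and 8 and at 123, 115, 166 and 99.1 CPM in the Pietrain pigs high 1, 2, 6 and 7. The high group again lay on both sides of the low group, with a log2 fold change of 0.01 (95% interval -0.43 to 0.44).

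DNAJB1 was at 38.3, 15.1 and 28.4 CPM in the Pietrain pigs low 3, 5 and 8 and at 35.6, 26.2, 19.5 and 28.2 CPM in the Pietrain pigs high 1, 2, 6 and 7. The low group alone spanned the high group, and the log2 fold change was 0.03 (95% interval -0.68 to 0.73). For HSP90AA1 the 7 Pietrain pigs ranged from 449.7 to 940.1 CPM, with a log2 fold change of -0.09 (95% interval -0.66 to 0.49). For HSP90AB1 they ranged from 346 to 488 CPM, with a log2 fold change of 0.12 (95% interval -0.28 to 0.53).

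Among the small heat shock genes, HSPB1 was at 229, 127 and 141 CPM in the Pietrain pigs low 3, 5 and 8 and at 266, 287, 137 and 194 CPM in the Pietrain pigs high 1, 2, 6 and 7. HSPB6 was at 40.7, 18.3 and 23.2 CPM in the low pigs and at 28.9, 57.6, 15.1 and 44.3 CPM in the high pigs, in the same order. The groups overlapped for both genes, and both had a log2 fold change of 0.44, the 95% interval running from -0.22 to 1.11 for HSPB1 and from -0.51 to 1.39 for HSPB6. CRYAB ranged from 574 to 825 CPM over the 7 Pietrain pigs, with a log2 fold change of 0.04 (95% interval -0.41 to 0.48).

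The difference between the breeds in the loin weight effect was tested in a fit over all 13 pigs. HSPH1 was the one gene of the 9 that was called there, where 5.9% of 12831 genes were called and 4.22% with the Hampshire effect lower. Its effect in Hampshire was lower by 2.08 on the log2 scale than in Pietrain, with a standard error of 0.40 (95% interval from -2.95 to -1.21, edgeR adjusted p = 0.0107). The call held in all 13 fits that left out 1 pig, with adjusted p from 0.00373 to 0.0279. For HSPA8 the difference was -0.75 (95% interval -1.36 to -0.14, adjusted p = 0.140), for HSPA5 -0.51 (adjusted p = 0.265) and for DNAJB1 -0.58 (adjusted p = 0.431). HSPA8 was called without the Hampshire pig high 8 (-1.02, adjusted p = 0.0434) and with the trend by gene length removed (-1.13, adjusted p = 0.0291). In the fit over all pigs the change of these 3 genes in Hampshire was not shown to differ from that in Pietrain.

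**Figure D3:**
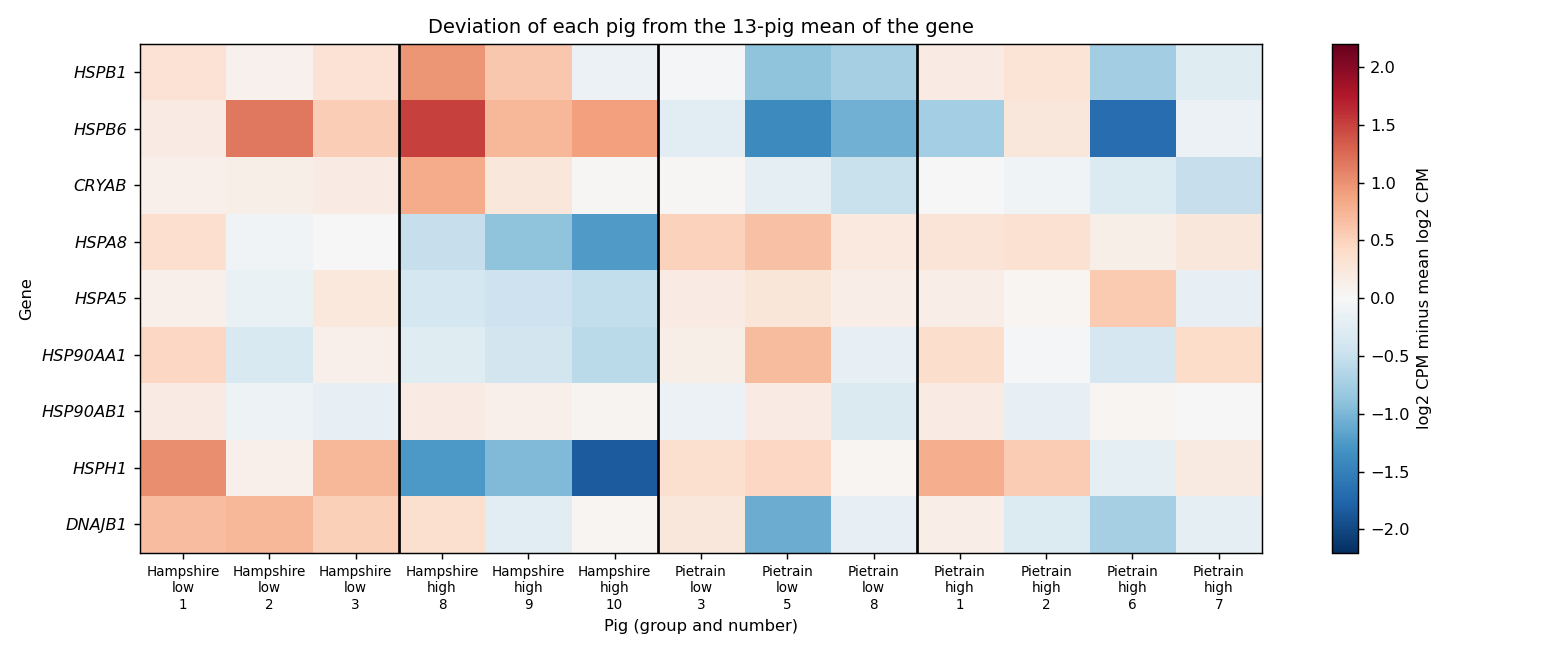
Deviation of each pig from the mean of all 13 pigs on the log2 CPM scale (colour bar), for each of the 9 genes (rows) and each pig (columns, with black lines between the groups). The 3 Hampshire pigs with high loin weight are below the mean for HSPA8, HSPA5, HSP90AA1 and HSPH1, and most Pietrain pigs are below it for HSPB6.

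The breeds were also compared at each loin weight. These comparisons use the same Hampshire pigs as above and so share samples with the first one. Among pigs with low loin weight, 1 of the 9 genes was called, HSPB6, where 17.9% of 12831 genes were called and 7.84% were called higher in Hampshire. HSPB6 averaged 77.8 ± 27.7 CPM (SD, n = 3) in Hampshire pigs against 27.4 ± 11.8 CPM (SD, n = 3) in Pietrain pigs, and the lowest Hampshire pig (54.7 CPM) lay above the highest Pietrain pig (40.7 CPM). The log2 difference was 1.51 with a standard error of 0.43 (adjusted p = 0.0317). The call was lost without the Hampshire pig low 2 (adjusted p = 0.131) or low 3 (adjusted p = 0.0720), and without the Pietrain pig low 5 (adjusted p = 0.131) or low 8 (adjusted p = 0.110).

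HSPB1, CRYAB and DNAJB1 were also higher in every low Hampshire pig than in every low Pietrain pig, so that with HSPB6 the groups of 4 of the 9 genes did not overlap, all with Hampshire higher. Over all genes tested, 42.8% did not overlap and 21.4% did so with Hampshire higher. The log2 difference was 0.75 for HSPB1 (adjusted p = 0.107), 0.35 for CRYAB (adjusted p = 0.272) and 0.89 for DNAJB1 (adjusted p = 0.0501), so none of the 3 passed the test. DNAJB1 was called by DESeq2 (adjusted p = 0.0256). Without the Pietrain pig low 3, both DNAJB1 (adjusted p = 0.0189) and HSPB1 (adjusted p = 0.0398) were called by edgeR. For HSPH1, the low pigs of the breeds overlapped, with a log2 difference of 0.38 (95% interval -0.24 to 1.00, adjusted p = 0.358).

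Among pigs with high loin weight, 5 of the 9 genes were called, where 46.8% of 12831 genes were called. HSPB6 and CRYAB were higher in Hampshire (22.6% of all genes), and HSPA8, HSPA5 and HSPH1 were lower (24.2% of all genes). For these 5 genes the breeds did not overlap, as was the case for 48.6% of all genes. HSPB6 averaged 103 ± 30.2 CPM (SD, n = 3) in Hampshire and 36.4 ± 18.4 CPM (SD, n = 4) in Pietrain, a 2.82-fold difference (standard error 0.39 on the log2 scale, adjusted p = 0.00696) that was called in all 7 fits that left out a pig. CRYAB averaged 1075 ± 321 CPM (SD, n = 3) in Hampshire against 707 ± 110.2 CPM (SD, n = 4) in Pietrain, a log2 difference of 0.60 (standard error 0.21, adjusted p = 0.0261). Without the Hampshire pig high 8 the CRYAB difference was 0.30 (adjusted p = 0.237), and the call was also lost without the Pietrain pig high 6 (adjusted p = 0.0608) or high 7 (adjusted p = 0.0620).

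HSPH1 averaged 27.1 CPM in Hampshire and 87.8 ± 25.7 CPM (SD, n = 4) in Pietrain pigs with high loin weight, a log2 difference of -1.70 (standard error 0.29, adjusted p = 0.000406). HSPA8 averaged 798 ± 207 CPM (SD, n = 3) in Hampshire and 1714 ± 105 CPM (SD, n = 4) in Pietrain, a log2 difference of -1.10 (standard error 0.20, adjusted p = 0.000642). HSPA5 averaged 81.3 ± 4.58 CPM (SD, n = 3) in Hampshire against 126 ± 28.7 CPM (SD, n = 4) in Pietrain, a log2 difference of -0.63 (standard error 0.18, adjusted p = 0.0107). All 3 calls held in each of the 7 fits that left out a pig. HSPB1, HSP90AA1 and HSP90AB1 were the 3 genes of the 9 that were called in none of the 5 comparisons, although HSPB1 at high loin weight was called without the Hampshire pig high 10 (log2 difference 0.84, adjusted p = 0.0409) and HSP90AA1 without the Pietrain pig high 6 (-0.71, adjusted p = 0.0346).

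By group mean, HSPH1 was highest in Hampshire low pigs, followed by Pietrain high, Pietrain low (82.0 ± 11.9 CPM, SD, n = 3) and Hampshire high pigs. The first 3 of these overlapped one another, and the Hampshire high group lay below all of them. HSPB6 took another order, with Hampshire high, Hampshire low, Pietrain high and Pietrain low. There the loin weight groups overlapped within each breed and the breeds did not overlap at the same loin weight, although the Pietrain pig high 2 (57.6 CPM) lay above the Hampshire pig low 1 (54.7 CPM).

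Log2 fold changes moved with gene length in Hampshire pigs, and the values with that trend removed are given here. The span is the distance on the genome from the start to the end of a gene as the deposited tables give it. Over 9945 genes with coordinates, the median log2 fold change in Hampshire was 0.46 for spans up to 5000 bases and -0.34 for spans over 80000 bases. HSPA8, DNAJB1 and HSPA5 have spans of 3409, 2812 and 4451 bases. HSPH1 has a span of 75543 bases, and the median of genes from 20001 to 80000 bases was -0.17. With the trend removed, 5 of the 9 genes were called in Hampshire, the 4 above and HSP90AA1, with log2 fold changes of -1.62 for HSPH1, -1.36 for HSPA8, -0.97 for DNAJB1, -0.91 for HSPA5 and -0.92 for HSP90AA1. The share of all genes called in Hampshire under that setting is not given here, so this count is not read as particular to the 9 genes. The signs of HSPB1, CRYAB and HSP90AB1 turned, at -0.11, -0.10 and -0.02. The CRYAB difference between breeds at high loin weight was then 0.05 (adjusted p = 0.866).

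Some cell type markers also differed with loin weight in Hampshire pigs, where 12% of all genes were called higher and 14.6% lower. All 5 slow fibre markers tested were higher in the high group (MYH7, MYL3, TNNC1, TNNI1 and TNNT1, median log2 fold change 2.06), as was the muscle marker CKM (1 of 4). Of the 3 fast fibre markers, MYH1 was called lower (log2 fold change -1.25), while ATP2A1 (-0.40) and TNNC2 (0.72, mean 13082 CPM in low and 21677 CPM in high pigs) were not called. Of the fibroblast markers 3 of 4 were higher, of the smooth muscle markers 2 of 4, of the macrophage markers 1 of 4 and of the adipocyte markers 1 of 2. The summed fibroblast level ranged from 668 to 1484 CPM in the low and from 1782 to 4586 CPM in the high group, and the summed adipocyte level from 53.3 to 64.2 and from 165 to 271 CPM. Of the immediate early genes, 1 of 4 was lower (JUN, log2 fold change -0.69), with summed levels of 502 to 1052 CPM in the low and 309 to 620 CPM in the high group. The part of these markers in the chaperone results was not tested.

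The other genes of the chaperone system give the setting of these values. Further genes measured numbered 75, in 10 lists by role. In Hampshire pigs 3 of them were called higher, where 12% of all genes were called higher, and 12 lower, where 14.6% of all genes were called lower. In Pietrain pigs 0 were called. In the HSP70 family 3 of 9 genes were called lower, beside 14.6% of all genes, and none higher (median log2 fold change -0.45). These 3, and the 12 above, include HSPA4L, whose call is set aside below. HSPA4, an HSP110 protein like HSPH1, fell by 1.10 on the log2 scale, with a standard error of 0.22 and an edgeR adjusted p of 0.00947. The mean CPM of HSPA4 was 167 ± 33.5 in low pigs (SD, n = 3) and 78.5 ± 17.0 in high pigs (SD, n = 3). HSPA4L, another HSP110 gene, was called too, but it was at 0.700 to 2.39 CPM in low and at 0.0908 to 0.408 CPM in high pigs and passed the filter on low counts only through the low group, so no support is drawn from its call. HSPA9, the mitochondrial HSP70, had a log2 fold change of -0.60 (adjusted p = 0.0260).

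Of 14 further J-domain genes, 2 fell in Hampshire pigs and none rose, a share close to the 14.6% of all genes called lower. DNAJA1, a cytosolic partner of HSC70, had a log2 fold change of -1.26 (adjusted p = 0.0464) and DNAJB4, a close relative of DNAJB1, of -0.89 (adjusted p = 0.0326). The high and low pigs overlapped for DNAJA1 and did not for DNAJB4. None of the 6 other nucleotide exchange factors was called (median log2 fold change 0.19), and BAG3, which links HSPB8 and HSP70 to autophagy at the Z-disc, had a mean CPM of 227 ± 34.9 in low pigs (SD, n = 3) and 215 ± 80.5 in high pigs (SD, n = 3). HSPB8, the one further small heat shock gene matched, was not called, with a log2 fold change of -0.11. BAG3 and HSPB8 are named here beyond the rule for named genes, after their values were seen.

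Among 13 HSP90 co-chaperones, 2 fell and 2 rose in Hampshire pigs, close to the shares of all genes called lower (14.6%) and higher (12%). SMYD1, a muscle methyltransferase that works with HSP90 in myosin folding, was at 65.2, 57.2 and 57.5 CPM in the Hampshire pigs low 1, 2 and 3 and at 15.5, 11.8 and 13.7 CPM in the Hampshire pigs high 8, 9 and 10. The groups lay far apart, and SMYD1 fell by 2.13 on the log2 scale (adjusted p = 0.00100, standard error 0.17). CHORDC1, an HSP90 co-chaperone also called morgana, was at 18.1, 11.3 and 13.6 CPM in the same low pigs and at 3.27, 5.45 and 2.36 CPM in the high pigs. It fell by 1.98 on the log2 scale (adjusted p = 0.00514, standard error 0.32). CDC37, which brings kinases to HSP90, and STUB1, a ubiquitin ligase that binds HSP70 and HSP90, rose. On the log2 scale CDC37 was 0.48 higher (adjusted p = 0.0499) and STUB1 0.56 higher (adjusted p = 0.0335). In the test of the difference between breeds SMYD1 and CHORDC1 were called as HSPH1 was, at -2.36 (adjusted p = 0.00251) and -1.73 (adjusted p = 0.0210).

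Of 13 genes of endoplasmic reticulum chaperones and stress, 3 were called lower and none higher with high loin weight in the Hampshire breed. Of all genes, 14.6% were called lower and 12% higher. The median log2 fold change of the list was 0.17, and 9 of the 13 genes had a value above 0. ATF6, a sensor of unfolded protein in that compartment and an activator of HSPA5, had a log2 fold change of -1.81 (adjusted p = 0.00289), and CANX, the lectin chaperone calnexin, of -0.84 (adjusted p = 0.00855). For ATF6 the effect also differed between breeds, by -1.61 (adjusted p = 0.0346), and for DDIT3, the stress transcription factor CHOP, by 2.78 (adjusted p = 0.0289). DDIT3 ranged from 9.13 to 14.98 CPM in Hampshire low, from 15.5 to 74.7 CPM in Hampshire high, from 16.2 to 37.8 CPM in Pietrain low and from 8.29 to 14.4 CPM in Pietrain high pigs. Each breed's loin weight groups did not overlap, in opposite directions, and DDIT3 was called in neither breed alone. Of all genes, 45.9% did not overlap in Hampshire and 4.6% in Pietrain. The Hampshire groups nearly touched, and the pigs high 8, 9 and 10 were at 19.3, 74.7 and 15.5 CPM, so the pig high 9 stood apart.

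Of the remaining lists, none of the 4 mitochondrial chaperones and none of the 7 chaperonin genes was called in Hampshire pigs. HSF4 was the one of 3 heat shock factor genes that was called, with a log2 fold change of 0.83 (adjusted p = 0.0275), while HSF1, the main activator of heat shock genes, was not called. HSF1 ranged from 38.6 to 49.9 CPM in low and from 56.3 to 72.3 CPM in high Hampshire pigs. Its groups did not overlap, as was the case for 45.9% of all genes. In a list of 5 genes of the Z-disc and of chaperone-assisted autophagy (FLNC, DES, SYNPO2, SQSTM1 and MYOT), FLNC, filamin C of the Z-disc, and SYNPO2, an adaptor of that pathway, fell. The log2 fold change of FLNC was -0.86 (adjusted p = 0.0341), that of SYNPO2 -0.69 (adjusted p = 0.0392). Of all genes, 14.6% were called lower. DES, SQSTM1 and MYOT were not called. Mean CPM in low and high pigs was 4052 and 5486.5 for DES, 547 and 674 for SQSTM1, and 1554 and 1018 for MYOT.

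**Figure D4:**
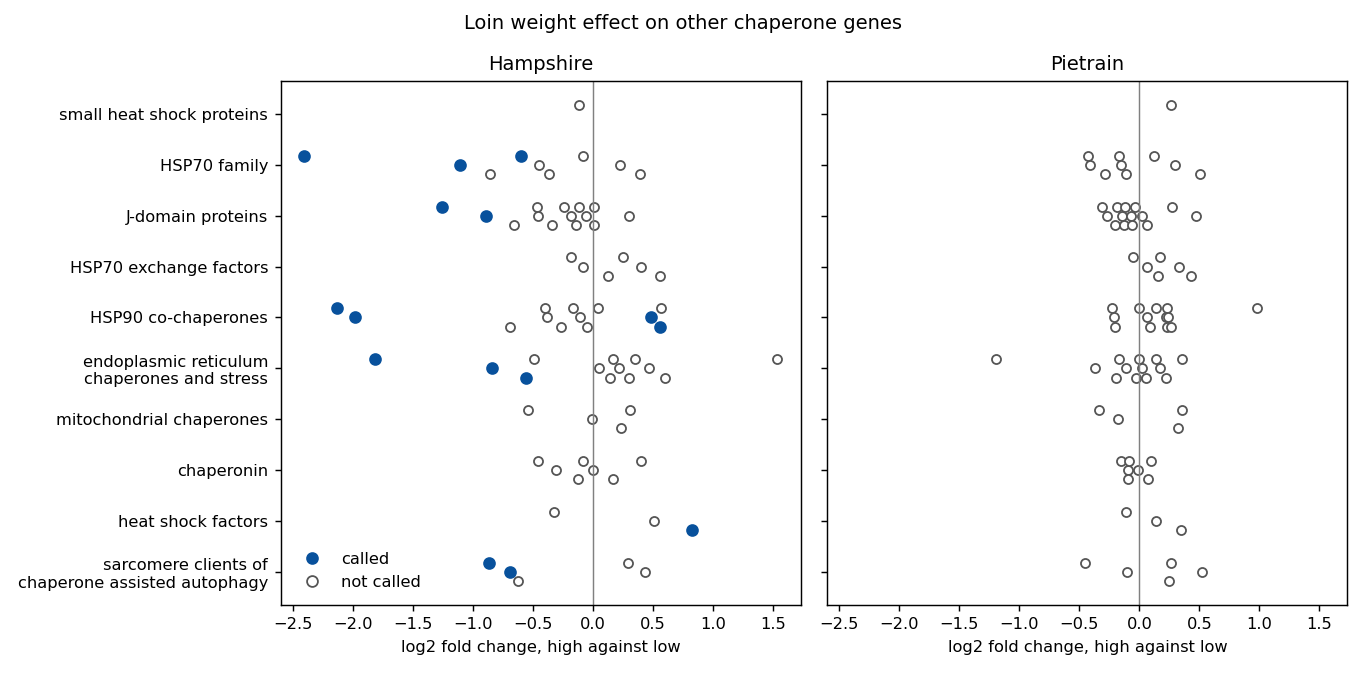
Log2 fold change of high against low loin weight for each further chaperone gene (points), by list (rows), in Hampshire (left) and Pietrain (right) pigs on the same linear axis. Filled points were called. Called genes stand in 6 of the 10 lists in Hampshire pigs, 12 left and 3 right of 0, and no point is filled for Pietrain pigs. The 12 include HSPA4L, which passed the filter on low counts only through the low group.

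Of the 75 further genes, 11 were called higher and 10 lower in Hampshire than in Pietrain at low loin weight. Of all genes, 7.84% were higher and 10.1% lower there. At high loin weight 21 were higher and 26 lower, beside 22.6% and 24.2% of all genes. Those lower at high loin weight included SMYD1, CHORDC1 and ATF6, with log2 differences of -2.44, -1.88 and -1.82. The further HSP70 exchange factors BAG2 and BAG6 were higher in Hampshire at both loin weights. BAG2, which restrains STUB1, had log2 differences of 2.17 at low (adjusted p = 0.0155) and 2.40 at high loin weight (adjusted p = 0.000726), and BAG6, which guards misfolded membrane proteins, of 0.72 (adjusted p = 0.0284) and 0.98 (adjusted p = 0.000790). UNC45B, the myosin chaperone of striated muscle, had a mean CPM of 356 ± 13.4 in Hampshire low (SD, n = 3) and of 133 ± 5.54 in Pietrain low pigs (SD, n = 3), a log2 difference of 1.41 (adjusted p = 0.00105). At high loin weight its log2 difference was 0.99 (adjusted p = 0.000221). TRAP1, the HSP90 of mitochondria, was higher in Hampshire by 1.39 at low (adjusted p = 0.0162) and 1.38 at high loin weight (adjusted p = 0.00175) on the log2 scale. Of 14 J-domain genes, 4 were lower and none higher in Hampshire at low loin weight, where 10.1% of all genes were called lower. At high loin weight 9 were lower and 1 was higher (DNAJB12, log2 difference 0.50, adjusted p = 0.0134), where 24.2% of all genes were called lower and 22.6% higher, DNAJB4 having a log2 difference of -1.39 (adjusted p = 0.000920) and DNAJB5 of -1.13 (adjusted p = 0.00190) at high loin weight.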

How the data were processed

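Total RNA of longissimus lumborum was made into TruSeq RNA v2 libraries, which do not keep the strand, and sequenced by the authors, who deposited 1 table of read counts per Ensembl gene for each breed, not normalized. Per the submitters' processing notes, FastQC, STAR, RSEM and DESeq2 and the Sscrofa10.2 build were used. The authors aligned to that build and called DEGs per breed with DESeq2. The versions of STAR and RSEM and the step that gave the counts are not given in the sources used here, so the deposited counts may be rounded estimates. The authors' result tables (fold changes and p-values) were used for gene symbols and coordinates only.

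From the counts, edgeR 4.0.16 (R 4.3.3) was run with TMM normalization, filterByExpr and the quasi-likelihood test, within each breed for loin weight and over all 13 pigs for the breed comparisons and the difference between breeds. P-values were adjusted by Benjamini-Hochberg over all genes tested, with a threshold of 0.05 and a fold change of at least 1.2 (no fold threshold for the difference). Levels are CPM with TMM factors over all pigs. Each standard error was the size of the log2 fold change divided by the square root of F. Exact two-sided permutation tests used log2(CPM + 0.5), where the smallest p is 0.1 for 3 pigs against 3 and 0.0286 for 4 against 3. Symbols were known for 13168 of 25322 genes, 7066 from the deposited tables and 6102 from a reference table of Ensembl gene IDs. RefSeq synonyms were used for older names only. The gene length trend was a lowess fit (span 0.3) on genomic span. DESeq2 1.42.0, other scalings and filters, other sets of pigs and leaving out each pig were alternatives. The code was tested on simulated counts. Plots were made in Python 3.11.15 using matplotlib 3.10.9.

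The members are the listed symbols. From each other chaperone list, at most 2 called genes per direction with the smallest adjusted p were named. The members and the lists were chosen with earlier results of these data known. All pigs come from separate animals, and all 4 Pietrain pigs labelled high were used, although the study's description of loin weights gives 3 in that group, and which pig differs is not stated there. Overlapping genes on opposite strands cannot be told apart.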

Additional observations from a re-analysis of the deposited data

Results flagged for a closer look

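HSPH1 met the criterion for a closer look because its loin weight effect differed between the breeds by a test of the difference itself. The difference, Hampshire minus Pietrain, was -2.08 on the log2 scale (standard error 0.40, edgeR adjusted p = 0.0107), from -1.99 in Hampshire and 0.13 in Pietrain pigs. In the group of 4, Pietrain high, no pig had a level of HSPH1 or another of the 9 genes far enough from the rest to be noted. Groups of 3 and the further chaperone genes were not examined for this.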

How the results depend on the processing

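The calls of HSPH1 in Hampshire pigs and in the difference between breeds held in every alternative run, while the calls of HSPA8, HSPA5 and DNAJB1 in Hampshire were each lost without at least 2 of the 6 pigs, 1 at a time. Over 612 single-gene values from alternatives, 530 kept their direction and side of the threshold, 23 lost a call, 11 gained one and 48 changed sign, and the cause was not tested. A fit over all 13 pigs called 2 of the 9 genes in Hampshire, HSPA5 (adjusted p = 0.0602) and DNAJB1 (adjusted p = 0.177) being lost. Except where stated, the counts of all genes called under these settings are not given here. The counts of the 9 genes are therefore not read as particular to them. DESeq2 called 1 gene of all in Pietrain and 1242 in the difference between breeds, and with the length trend removed the latter count was 480, with 2 of the 9 genes. In low pigs, 2 of the 9 genes were called between breeds by DESeq2, with at least 10 counts in every pig (DNAJB1, adjusted p = 0.0329) and in a fit of those pigs alone (HSPB1, adjusted p = 0.0495). The CRYAB call at high loin weight was lost with no filter (adjusted p = 0.0572) and in a fit of those pigs alone (adjusted p = 0.0581), and HSP90AA1 was called there with the length trend removed (-1.14, adjusted p = 0.00118).

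Leaving out 1 pig at a time gave 1 to 4 of the 9 genes called in Hampshire (1224 to 3049 of all genes) and 0 in Pietrain. It gave 1 to 2 in the difference between breeds (379 to 1052 of all genes), 0 to 3 between breeds in low pigs (109 to 2611 of all genes) and 4 to 6 in high pigs. For the high pigs the counts of all genes are not given here. The lowest counts in Hampshire came without the pigs low 3 (1 gene) and high 10 (1 gene, 1760 of all genes).

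Signs turned only for values that were not called. With the length trend removed, Hampshire values were -0.11 for HSPB1, -0.10 for CRYAB and -0.0200 for HSP90AB1, Pietrain values -0.00293 for HSPA5 and -0.000955 for DNAJB1, and the difference between breeds -0.10 for CRYAB and -0.11 for HSP90AB1. Breed differences under that setting were -0.0487 for HSP90AB1 in low pigs and, in high pigs, -0.16 for HSP90AB1 and -0.28 for DNAJB1. HSPA5 in Pietrain was -0.00348 by DESeq2 and -0.0234 in the fit over all pigs, and in the difference between breeds HSPB6 was 0.00219 by DESeq2, 0.00212 with its size factors, and HSP90AB1 -0.0125 with no filter. Leaving out 1 pig gave ranges across 0 in Hampshire for HSPB1 (-0.00478 to 0.54) and CRYAB (-0.0365 to 0.41). In Pietrain the ranges across 0 were -0.0847 to 0.20 for CRYAB, -0.13 to 0.10 for HSPA5, -0.26 to 0.16 for HSP90AA1, -0.0113 to 0.30 for HSPH1 and -0.28 to 0.38 for DNAJB1. In the difference between breeds they were -0.50 to 0.0802 for HSPB1, -0.49 to 0.24 for HSPB6, -0.0658 to 0.36 for CRYAB and -0.13 to 0.11 for HSP90AB1. In low pigs between breeds they were -0.16 to 0.0243 for HSPA5, -0.34 to 0.13 for HSP90AA1 and -0.0538 to 0.19 for HSP90AB1.

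No paired analysis was possible because high and low pigs of a breed share no number and the low pigs of the breeds share only the number 3. Whether the number of pigs or the depth limits the precision for these genes was not tested. The least abundant, DNAJB1, had a count of 191 (15.1 CPM) in its lowest pig.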

Other observations

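Among Pietrain pigs, 3 chaperone genes were lowest in the same 2 pigs, 1 from each loin weight group. Of the other chaperone genes, some went opposite ways in these 2 pigs. The pigs low 5 and high 6 had the lowest levels of 3 genes among the 7, at 127 and 137 CPM for HSPB1, 18.3 and 15.1 CPM for HSPB6 and 15.1 and 19.5 CPM for DNAJB1. The pig low 5 was the highest of the 7 for HSPA8, HSP90AA1 and HSP90AB1, at 2248, 940.1 and 488 CPM. For HSP90AB1 the pig high 1 was close, at 487 CPM. The pig high 6 was the highest for HSPA5, at 166 CPM. It was the lowest for HSPA8, HSP90AA1 and HSPH1, at 1571, 449.7 and 58.2 CPM. CRYAB lay within the range of the other Pietrain pigs in both pigs. The same 2 pigs had the lowest summed levels of the slow fibre markers, 27.7 and 746 CPM, where the other 5 ranged from 1470.2 to 11151 CPM. The Pietrain pig high 1 had the next lowest sum, 1470.2 CPM, but was among the highest of the 7 for HSPB1 (266 CPM) and DNAJB1 (35.6 CPM). Its HSPB6 level was 28.9 CPM. The Pietrain pig low 8 was close to the pig high 6 for HSPB1, at 141 CPM, with a slow fibre sum of 6366 CPM. In Hampshire pigs the pig high 8, highest of the 13 for HSPB1, HSPB6 and CRYAB at 458, 137 and 1437 CPM, also had the highest slow fibre sum, 17788 CPM. This was noticed after the values were seen and was not tested.

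The stress-inducible HSP70 gene, listed as HSP70.2 in the deposited tables and HSPA1A in other annotations, varied widely within groups. It ranged from 690.4 to 1732 CPM in Hampshire low, from 463 to 1134 CPM in Hampshire high, from 153 to 934 CPM in Pietrain low and from 279 to 496 CPM in Pietrain high pigs. It was called in none of the 5 comparisons, with a log2 fold change of -0.86 in Hampshire (standard error 0.40, edgeR adjusted p = 0.140). It was named after its values were seen, and near-identical HSP70 copies may share its reads.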
